A study of Mus musculus with 11 samples.

Results

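Transcripts that mark natural killer (NK) cells and T cells were followed in adherent lavage cells labelled alveolar macrophages, the phagocytes that live in the air spaces, in a mouse model of macrophage activation syndrome. The set holds 9 genes chosen by name, namely Il2rb, Klrd1, Klrk1, Cd3d, Lat, Il7r, Ctla2a, Ly6c1 and Ifng, out of 19505 distinct gene symbols among 28846 transcript clusters of the array, a cluster being the probes that report on 1 transcript locus. Each of the 9 symbols had 1 transcript cluster, and all 9 passed the filter on dim signal that left 12143 genes for testing.

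All mice were female C57BL/6J animals aged 6 weeks when bought, and each was injected 5 times within 10 days. Resolution mice (n = 4) were given CpG 1826, an oligonucleotide ligand of the DNA sensor Tlr9, with lavage at day 30. Acute mice (n = 3) were given the same CpG course, with lavage at day 10. Control mice (n = 4) were given PBS, also with lavage at day 10, so that agent and day of lavage cannot be told apart between resolution and control. Cells of the bronchoalveolar lavage were purified by adherence, with no sort named in the labels, and the RNA of each sample was measured on 1 Affymetrix array.

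NK cells are innate lymphocytes that kill infected or altered cells, and T cells recognise peptides on MHC molecules through the T cell receptor and its CD3 chains. Both cell types secrete interferon-gamma, the cytokine that activates macrophages and that drives macrophage activation syndrome in mouse models. In a lavage purified by adherence they are expected as a minority beside macrophages.

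Levels are log2(intensity + 1). An array's background was the 90th percentile of its 23 antigenomic probe sets, control probes with no target in the mouse, and lay between 6.12 and 6.24 on this scale over the 11 arrays. A gene with no array of a group above background had only a bound there, and its fold is then given as "at least", against the background. Median intensities ran from 51.4 to 57.0, and 8731 to 8952 genes lay above background on an array. Differences carry moderated standard errors (SE) from limma, and adjusted p-values are over all 12143 genes with a threshold of 0.05.

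The data bear out the label of the set only in part. Lat, Ctla2a and Il7r lay above background on all 11 arrays, whereas Ifng did so on none, Klrk1 on 1 acute array, Klrd1 on 1 of 4 resolution, 3 of 3 acute and 3 of 4 control arrays, and Il2rb, Cd3d and Ly6c1 on the 3 acute arrays alone. Some of these margins were small, as on acute replicate 3 for Cd3d (0.041) and Ly6c1 (0.10) and on acute replicate 1 for Klrk1 (0.094). The background percentile was chosen after the values were seen, and no other percentile was tested. Of 6 NK cell markers on the array that are not members, all 6 were below background on every array. These were Ncr1, the NKp46 receptor, Klrb1c, the NK1.1 antigen, the receptor gene Klre1, the transcription factor Eomes, the granzyme Gzma and perforin, Prf1. Of 6 T cell markers that are not members, the CD3 chains Cd3e and Cd3g, the surface receptor Cd6 and the adaptor Trat1 were below background on every array. Cd5, an inhibitory receptor, exceeded it on 4 arrays. Cd2, an adhesion receptor of T and NK cells, stood between 14.20 and 14.83 on all 11 arrays. The mean level of the 8 NK cell markers was 4.74 to 4.84 in resolution, 5.08 to 5.29 in acute and 4.67 to 5.00 in control arrays. That of the 8 T cell markers was 6.15 to 6.48 in resolution, 6.68 to 7.12 in acute and 6.57 to 6.77 in control arrays. The NK cell mean includes the members Klrd1 and Klrk1, and the T cell mean the members Cd3d and Lat, besides the bright Cd2. Neither mean is therefore a check on the members. By contrast, all 9 alveolar macrophage markers on the array exceeded background on every array, with mean levels of 15.26 to 15.37, 15.22 to 15.33 and 15.32 to 15.48 in resolution, acute and control arrays.

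**Figure D1:**
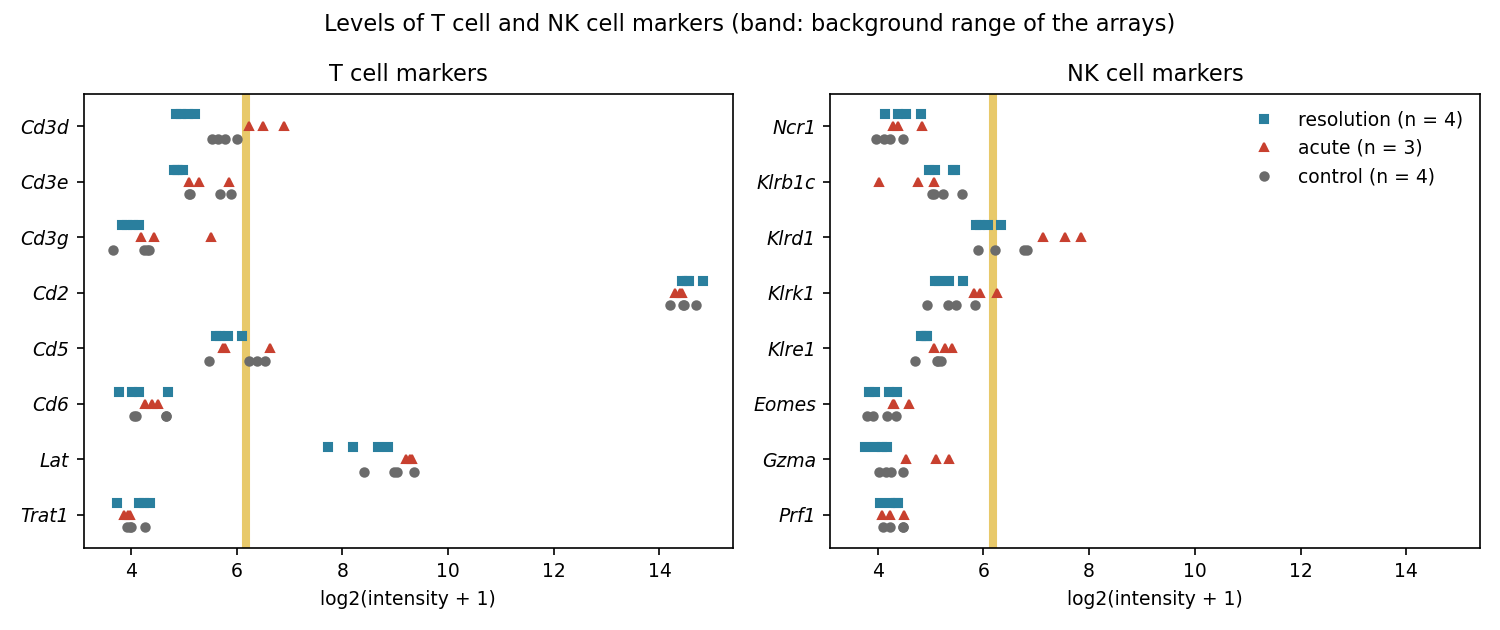
Levels of T cell and NK cell markers on each of the 11 arrays, as log2(intensity + 1) on the horizontal axis, with 1 point for each array and the range of the arrays' background as a band. Cd2 and Lat lie to the right of the band on all 11 arrays, Cd3d exceeds its array's background on the 3 acute arrays only, and Ncr1, Klrb1c, Gzma and Prf1 lie to its left on every array.

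Acute versus control asks which of these transcripts differed at the end of the CpG course. Il2rb, Ctla2a and Ly6c1 rose, and no member fell. These 3 of 9 compare with 0.189% of all genes called higher, and the 0 that fell with 0.0494% called lower. At an unadjusted p under 0.05 limma gave 6 higher members, against 4.26% of all genes, and 0 lower, against 4.79%. The arrays of the groups did not overlap for 5 members, Il2rb, Klrd1, Cd3d, Ctla2a and Ly6c1, all higher in acute, against 4.71% of all genes. The median difference of the 9 members was 0.80, and that of all genes was -0.00059. Ly6c1 passed the filter through its acute arrays alone, and Il2rb passed it on 3 acute arrays and 1 control array, so that both needed the group in which they were high, and these counts describe the set and test nothing.

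In resolution versus acute, 7 of the 9 members fell, Il2rb, Klrd1, Klrk1, Cd3d, Lat, Ctla2a and Ly6c1, and their arrays did not overlap between the groups. Among all genes 6.69% were called lower and 12.9% were lower without overlap. No member was higher by the adjusted p (7.77% of all genes) or at an unadjusted p under 0.05 in limma (15.2%), where 7 were lower (13.6%). The median difference of the members was -1.45. Here too Il2rb and Ly6c1 had passed the filter only with the acute arrays, in which they were high. The members were also chosen with earlier results of these data known, so these counts describe the set and test nothing. In resolution versus control, Cd3d alone of the 9 passed the test and was lower, against 9% of all genes called lower, so that 1 in 9 is near the background, and it was the only member without overlap between the groups, against 11.2% of all genes. The number of members that were higher was 0 by the adjusted p (9.6% of all genes) and 0 at an unadjusted p under 0.05 in limma (16.5%), where 3 were lower (14.8%). Acute versus control and resolution versus acute share the acute arrays, and resolution versus control shares the other arrays with them, so the 3 comparisons are not independent. In bulk RNA a change in the number of cells of a type and a change in RNA per cell cannot be told apart.

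**Figure D2:**
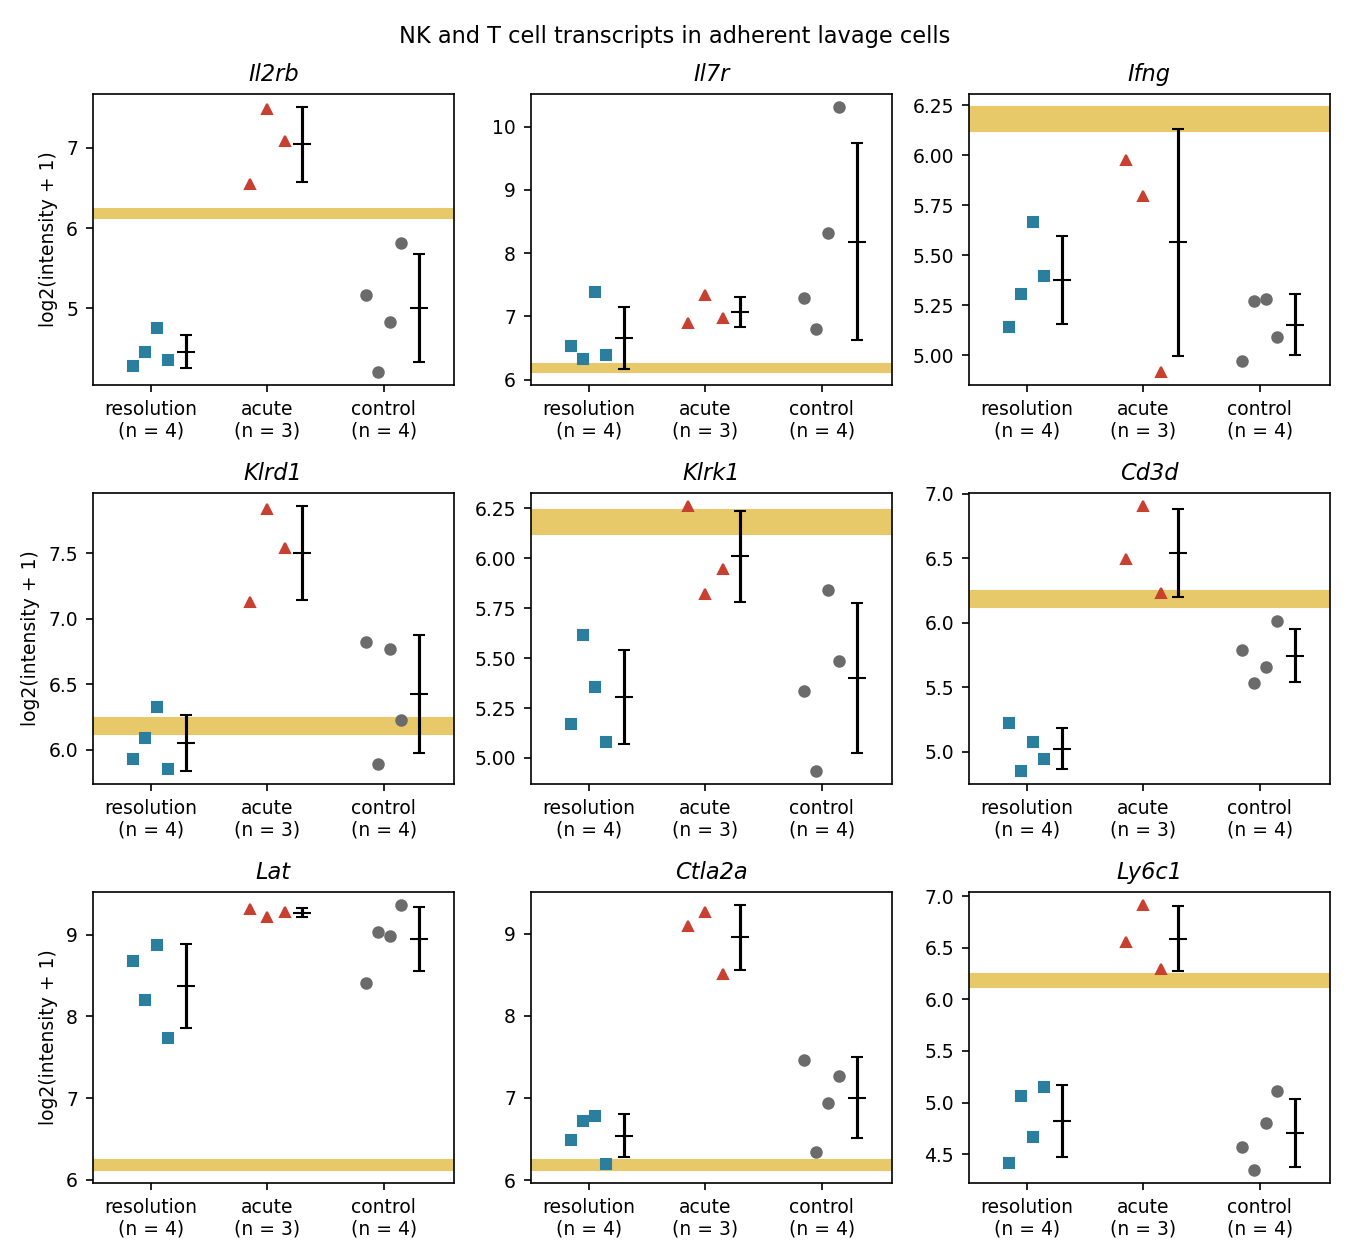
Levels of the 9 members as log2(intensity + 1) on the vertical axis for resolution, acute and control arrays, with 1 point for each array, the mean and SD as bars beside them and the range of the arrays' background as a band. The vertical scale differs between panels. Acute arrays stand above both other groups for Il2rb, Klrd1, Cd3d, Ctla2a and Ly6c1, and Il7r reaches 10.31 on 1 control array.

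**Figure D3:**
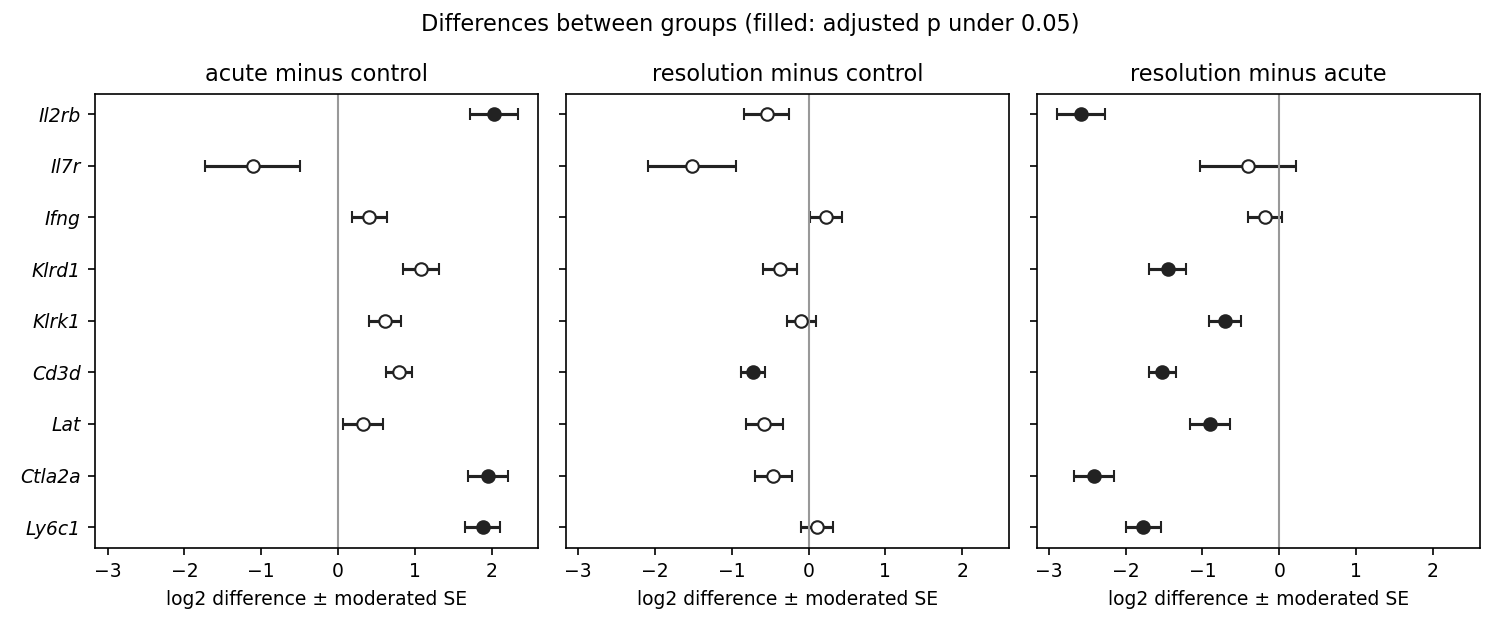
Differences between groups on the log2 scale for the 9 members, with moderated SE as bars and filled symbols for adjusted p under 0.05. Filled symbols stand at 2.03 for Il2rb, 1.95 for Ctla2a and 1.88 for Ly6c1 in acute minus control, and at 7 members in resolution minus acute, all below 0.

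Among the cytokine receptors, Il2rb encodes the beta chain shared by the receptors for interleukin 2 and interleukin 15, on which NK cells and memory T cells depend. Its level was 6.55, 7.49 and 7.09 in the 3 acute arrays, against 5.17, 4.21, 4.84 and 5.82 in control. In resolution it was 4.28, 4.46, 4.75 and 4.35. Every acute array was above background and above all arrays of the other groups, and the resolution and control arrays were all below background. Il2rb rose in acute versus control by 2.03 ± 0.31 (SE, adjusted p = 0.0196), at least 1.84-fold, as a gene that the acute arrays had brought past the filter. This call ended without control replicate 1 (adjusted p = 0.0633), acute replicate 2 (0.104) or acute replicate 3 (0.0837), and with only the acute and control arrays in the fit (0.134), the alternatives ranging over 0.00405 to 0.134. It fell by 2.58 ± 0.31 (SE, adjusted p = 0.000199) in resolution versus acute, at least 1.80-fold, and stayed past the threshold under every alternative that kept it among the genes tested. Resolution versus control gave -0.55 ± 0.29 (SE, adjusted p = 0.226), with both groups below background.

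Il7r, the alpha chain of the interleukin 7 receptor on T cells and innate lymphoid cells, did not pass in any comparison. Its level was 6.53, 6.33, 7.39 and 6.39 in resolution, 6.89, 7.34 and 6.97 in acute and 7.29, 6.80, 8.32 and 10.31 in control. Control replicate 4 carried the highest value, and the ranges of the 3 groups overlapped. The difference was -1.11 ± 0.62 (SE, adjusted p = 0.642) in acute versus control and -1.52 ± 0.58 (SE, adjusted p = 0.0877) in resolution versus control. Without control replicate 4 these differences were -0.40 and -0.81. Without control replicate 2 the difference in resolution versus control passed (adjusted p = 0.0284; 0.0284 to 0.186 over the alternatives). The genes with the most similar profile, by the root mean square difference of mean-centred log2 levels over the 11 arrays, were B430306N03Rik (0.442), Npy (0.455) and Pla2g2d (0.498), the last 2 encoding neuropeptide Y and a secreted phospholipase A2. On control replicate 4 they stood at 10.53, 9.48 and 8.72, and on the other 10 arrays they reached at most 8.95, 6.10 and 6.76. They were picked for likeness to Il7r, which was itself highest on that array, so their peak there is no separate result.

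Of 12 tested genes of lymphocyte cytokine receptors and their signalling 1 rose, Il2rb, and 0 fell in acute versus control, with a median difference of 0.10. The interleukin 2 receptor alpha chain Il2ra differed by 0.20 ± 0.30 (SE) and the interleukin 15 receptor alpha chain Il15ra by 0.38 ± 0.16 (SE, adjusted p = 0.495). Resolution versus control had 1 that rose and 2 that fell. Il4ra, the interleukin 4 receptor, rose by 0.52 ± 0.13 (SE), Stat5a, which transmits interleukin 2 and interleukin 7 signals, fell by 0.70 ± 0.12 (SE), and Il18rap, a chain of the interleukin 18 receptor, fell by 0.61 ± 0.17 (SE). Resolution versus acute had 0 that rose and 2 that fell, Il2rb and Stat5a, where Stat5a fell by 0.62 ± 0.13 (SE).

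Ifng, the gene of interferon-gamma, was below background on all 11 arrays. It was listed at 5.14, 5.31, 5.67 and 5.40 in resolution, at 5.98, 5.80 and 4.92 in acute and at 4.97, 5.27, 5.28 and 5.09 in control. Acute replicates 1 and 2 gave the highest values and acute replicate 3 the lowest of all arrays. The difference was 0.41 ± 0.22 (SE, adjusted p = 0.626) in acute versus control, 0.22 ± 0.21 (SE, adjusted p = 0.505) in resolution versus control and -0.19 ± 0.22 (SE, adjusted p = 0.640) in resolution versus acute, and no fold is given. Without acute replicate 3 the first of these was 0.73. Of 6 tested genes of interferon-gamma production, among them the chemokine Xcl1 and the transcription factor Runx3, 0 rose and 0 fell in each of the 3 comparisons. At an unadjusted p under 0.05 the count was also 0 in each. The genes of T-bet (Tbx21) and Stat4, which drive Ifng transcription in lymphocytes, were too dim to be tested.

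Of 9 tested on the list of its receptor and targets 4 rose and 0 fell in acute versus control, the chemokine Cxcl9 by 2.69 ± 0.28 (SE; at least 3.94-fold), the guanylate-binding protein Gbp2 by 1.96 ± 0.23 (at least 3.16-fold), the immunoproteasome subunit Psmb9 by 1.42 ± 0.17 and the peptide transporter Tap1 by 1.09 ± 0.14. These 4 genes, and no others of the 9, fell in resolution versus acute, with differences of -2.27 for Cxcl9, -1.29 for Gbp2, -0.66 for Psmb9 and -0.81 for Tap1. In resolution versus control 2 of the 9 rose and 0 fell, Psmb9 by 0.76 ± 0.16 (SE, adjusted p = 0.00526) and Gbp2 by 0.67 ± 0.22 (SE, adjusted p = 0.0474). The targets Irf1 (1.12, adjusted p = 0.0941), Cxcl10 (0.46, adjusted p = 0.341) and Ciita (0.58, adjusted p = 0.162) did not pass in acute versus control. The receptor chains Ifngr1 and Ifngr2 differed by 0.13 and -0.0043 in acute versus control.

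Klrd1 encodes CD94, which pairs with NKG2 proteins in receptors for the nonclassical MHC molecule Qa-1. Its level was 7.13, 7.84 and 7.54 in acute, against 6.83, 5.89, 6.77 and 6.23 in control. In resolution it was 5.93, 6.09, 6.33 and 5.85. The acute arrays lay above all arrays of the other groups, while resolution and control overlapped. The acute versus control difference of 1.08 ± 0.24 (SE), 2.11-fold between the means with 3 of 4 control arrays above background, did not pass (adjusted p = 0.108; 0.0571 to 0.413 over the alternatives). Klrd1 fell by 1.45 ± 0.24 (SE, adjusted p = 0.00142) in resolution versus acute. The means differed 2.74-fold, but 1 of the 4 resolution arrays exceeded background and the resolution mean of 6.05 did not, so the level there was barely measured. Resolution versus control gave -0.38 ± 0.22 (SE, adjusted p = 0.270). The genes with the most similar profile were Nod2 (root mean square difference 0.197), a cytosolic sensor of bacterial muropeptides, Gpr65 (0.207), a proton-sensing receptor, and Atad5 (0.332).

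Klrk1 encodes NKG2D, the activating receptor for stress-induced ligands. Its level was 6.26, 5.82 and 5.94 in acute, against 5.33, 4.94, 5.84 and 5.48 in control. In resolution it was 5.17, 5.61, 5.36 and 5.08. Of these, acute replicate 1 alone exceeded its background, and acute replicate 2 lay below control replicate 3. The difference was 0.61 ± 0.20 (SE, adjusted p = 0.361) in acute versus control. Resolution versus control gave -0.09 ± 0.19 (SE, adjusted p = 0.784). Klrk1 fell by 0.70 ± 0.20 (SE, adjusted p = 0.0373) in resolution versus acute, where no resolution array exceeded background and the acute mean lay under it as well, so no fold is given. That call ended without control replicate 1 (adjusted p = 0.05004), acute replicates 1 (0.152), 2 (0.0527) or 3 (0.0768) or resolution replicates 1 (0.0829), 3 (0.0667) or 4 (0.0889), the alternatives ranging over 0.0210 to 0.152. The genes nearest to Klrk1 in profile were Phf24 (root mean square difference 0.194), Gm10354 (0.205) and Tubal3 (0.208). Tubal3 reached at most 5.65, below background on every array, so its likeness to Klrk1 is mostly between levels below background.

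Of 15 NK receptors on the array, Klrd1 and Klrk1 included, 10 were below background on every array and 8 were tested, of which 0 rose and 0 fell in acute versus control, with 3 higher, Klrd1 and Klrk1 among them, and 2 lower at an unadjusted p under 0.05. The 1 that rose in resolution versus control was the lectin-like receptor Klrb1b, by 0.97 ± 0.19 (SE), above background on every array. In acute versus control Klrb1b differed by 0.95 ± 0.21 (SE, adjusted p = 0.106). The 2 that fell in resolution versus acute were Klrd1 and Klrk1. Tyrobp, the adaptor DAP12 that macrophages share with NK cells, stood at 16.30 ± 0.16 log2 (SD, n = 4) in resolution arrays, and its differences between groups ran from -0.01 to 0.02.

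Cytotoxic granule genes gave few measurable values. Of 10 on the array 6 were below background on every array and too dim to be tested. Among these, Gzma and Nkg7 were listed higher on every acute array than on any control or resolution array. Gzmb, Gzmk, Prf1 and Fasl overlapped between acute and control. Among the 4 tested 0 rose and 0 fell in acute versus control, also at an unadjusted p under 0.05, where the smallest p belonged to Serpinb9, an inhibitor of granzyme B that protects its own cell, at 0.37 ± 0.19 (SE, adjusted p = 0.610). Gzmm exceeded background on 3 resolution, 2 acute and 3 control arrays and differed by 0.09 ± 0.18 (SE, adjusted p = 0.918) in acute versus control. Ctsw exceeded it on 2 acute arrays and 1 control array and differed by 0.26 ± 0.19 (SE, adjusted p = 0.725). Serpinb9 was the 1 that fell in resolution versus control, by 0.94 ± 0.18 (SE), and the 1 that fell in resolution versus acute, by 1.31 ± 0.19 (SE).

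Cd3d encodes the delta chain of the CD3 complex, which carries the signal of the T cell receptor into the cell. Its level was 5.22, 4.85, 5.08 and 4.94 in resolution, 6.49, 6.91 and 6.23 in acute and 5.78, 5.53, 5.66 and 6.01 in control. The 3 groups did not overlap in any pair, with acute highest, control next and resolution lowest, and the acute arrays alone exceeded background. The acute versus control difference was 0.80 ± 0.17 (SE, adjusted p = 0.102; 0.0577 to 0.395 over the alternatives), at least 1.30-fold, and did not pass. Cd3d fell by 0.72 ± 0.16 (SE, adjusted p = 0.00721) in resolution versus control, with both groups below background and so no fold. It fell by 1.52 ± 0.17 (SE, adjusted p = 0.000114) in resolution versus acute, at least 1.28-fold. The genes with the most similar profile were the interferon-inducible gene Ifi211 (root mean square difference 0.195), Cyria (0.198) and Clu (0.261).

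The CD3 chains Cd3e and Cd3g were below background where Cd3d exceeded it. Cd3e was listed at 4.82 to 4.99 in resolution, 5.10 to 5.86 in acute and 5.10 to 5.89 in control arrays, with -0.03 ± 0.22 (SE, adjusted p = 0.980) in acute versus control. Other genes of this list were detected. Cd247 exceeded background on 2 resolution, 1 acute and 3 control arrays, and Cd4 on 3, 2 and 4. In acute versus control Cd247 differed by -0.20 ± 0.16 (SE, adjusted p = 0.742) and Cd4 by 0.14 ± 0.23 (SE, adjusted p = 0.898). Of 8 tested genes of the T cell receptor and its co-receptors 0 rose and 0 fell in acute versus control, with 1 higher and 0 lower at an unadjusted p under 0.05, and Cd3d was the 1 that fell in each of the other comparisons.

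Lat encodes the linker for activation of T cells, a membrane adaptor that T cells, NK cells and mast cells use. Its level was 8.68, 8.20, 8.87 and 7.73 in resolution, 9.31, 9.21 and 9.28 in acute and 8.41, 9.03, 8.98 and 9.37 in control. Resolution and acute did not overlap, while control spanned the acute values. Acute versus control gave 0.32 ± 0.26 (SE, adjusted p = 0.753) and resolution versus control gave -0.58 ± 0.24 (SE, adjusted p = 0.123; 0.0493 without control replicate 1 and up to 0.350 over the alternatives). Lat fell by 0.90 ± 0.26 (SE, adjusted p = 0.0375) in resolution versus acute, 1.86-fold. This call ended without acute replicates 1 (adjusted p = 0.108), 2 (0.0810) or 3 (0.0927), without resolution replicates 2 (0.0790) or 4 (0.0791) and with array weights (0.0587), the alternatives ranging over 0.0186 to 0.108. The genes nearest to Lat in profile were Serpinb6b (root mean square difference 0.203), Cd55 (0.243), which protects cells from complement, and Olfr1182 (0.259). Cd55 reached at most 5.90, below background on every array.

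Of 8 tested genes of proximal T cell receptor signalling, Lat included, 0 rose and 0 fell in acute versus control, also at an unadjusted p under 0.05. In resolution versus control 3 of the 8 fell, Fyn, Vav1 and Lcp2, and in resolution versus acute these 3 and Lat fell. Fyn, a kinase that phosphorylates receptor tails in T cells and in myeloid cells, fell by 2.11 ± 0.14 (SE) in resolution versus control, 4.31-fold. There the guanine exchange factor Vav1 fell by 0.65 ± 0.13 (SE) and the adaptor Lcp2 fell by 0.48 ± 0.15 (SE). Zap70, the T cell kinase that phosphorylates Lat, was below background on every array.

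Ctla2a encodes a protein related to the propeptide of cathepsin L that inhibits cysteine proteases, first described in activated mouse T cells. Its level was 9.10, 9.26 and 8.50 in acute, against 7.47, 6.34, 6.93 and 7.27 in control. In resolution it was 6.48, 6.71, 6.78 and 6.19. Every acute array stood above every array of the other groups, all 11 arrays exceeded background, and resolution overlapped with control. Ctla2a rose in acute versus control by 1.95 ± 0.26 (SE, adjusted p = 0.00903), 3.87-fold. It fell by 2.41 ± 0.26 (SE, adjusted p = 8.35e-05) in resolution versus acute, 5.32-fold between the means. The resolution arrays lay only 0.0072 to 0.62 above background, so the level there was barely measured. The acute versus control call ended without acute replicate 2 (adjusted p = 0.0620) and with only the acute and control arrays in the fit (0.0548), the alternatives ranging over 0.00169 to 0.0620. Resolution versus control gave -0.46 ± 0.24 (SE, adjusted p = 0.219; 0.0490 without control replicate 2 and up to 0.455 over the alternatives).

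Ly6c1 encodes a surface protein anchored by a lipid, found on lymphocyte subsets and on endothelium. Its level was 6.56, 6.92 and 6.29 in acute, against 4.57, 4.35, 4.80 and 5.12 in control. In resolution it was 4.41, 5.06, 4.66 and 5.15. The acute arrays were the only ones above background, and resolution and control overlapped. Ly6c1 rose in acute versus control by 1.88 ± 0.22 (SE, adjusted p = 0.00403), at least 1.35-fold, as a gene that the acute arrays alone had brought past the filter. It fell by 1.77 ± 0.22 (SE, adjusted p = 0.000251) in resolution versus acute, at least 1.32-fold. The rise stayed past the threshold under every alternative that kept Ly6c1 among the genes tested (adjusted p = 0.000935 to 0.0365). Resolution versus control gave 0.11 ± 0.21 (SE, adjusted p = 0.761).

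Both genes have a close paralog. Ctla2b had 6.84, 6.75 and 6.20 in acute, against 6.04, 5.52, 5.95 and 6.44 in control, with a difference of 0.61 ± 0.23 (SE, adjusted p = 0.445). Its level in resolution was 5.67, 5.86, 6.06 and 5.33, and it fell by 0.87 ± 0.23 (SE, adjusted p = 0.0262) in resolution versus acute. Ly6c2, the gene usually taken to mark inflammatory monocytes, was listed at 5.93, 6.09 and 4.94 in acute, against 4.21, 4.29, 4.39 and 4.76 in control. In resolution it was listed at 3.79, 4.25, 4.04 and 4.47. It stayed below background on all 11 arrays and was too dim to be tested. The acute arrays of Ly6c2 lay above those of control, as for Ly6c1. Of 3 tested genes of the Ctla2 family and its protease Ctsl, cathepsin L, 1 rose and 0 fell in acute versus control and 2 fell in resolution versus acute, Ctla2a and Ctla2b. Of 4 tested Ly6 family genes Ly6c1 was the 1 that rose in acute versus control and the 1 that fell in resolution versus acute. How far the probes of one paralog take up RNA of the other was not tested.

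**Figure D4:**
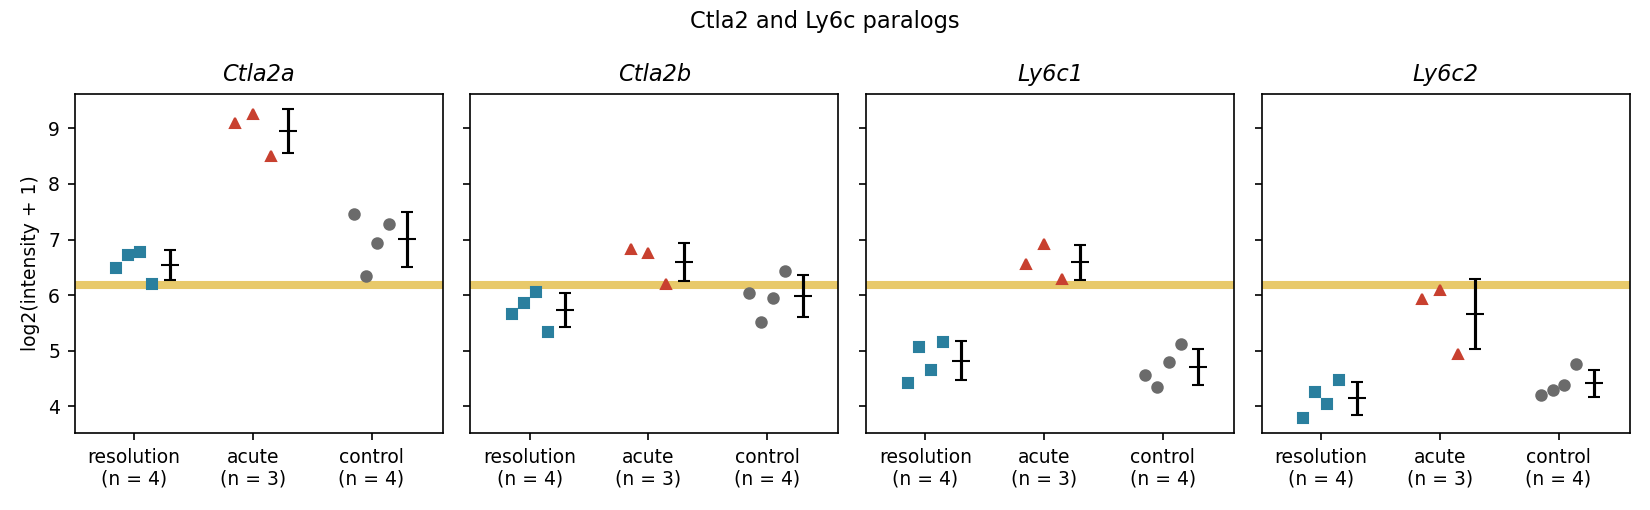
Levels of Ctla2a, Ctla2b, Ly6c1 and Ly6c2 as log2(intensity + 1) on a shared vertical axis for resolution, acute and control arrays, with 1 point for each array, the mean and SD as bars and the range of the arrays' background as a band. The acute arrays of Ctla2a reach 8.50 to 9.26, those of Ctla2b 6.20 to 6.84, and Ly6c2 stays below the band.

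The sequences before the listed starts of both pairs of paralogs and of Cd3d are shown as a description, chosen after the values were seen. They are the 250 bases before the most upstream start that the RefSeq promoter table (GRCm38.p6) lists for each gene, 5′ to 3′ on the strand of the gene. The listed start is the gene model's own first base for Ctla2a, whereas the gene model begins 17 bases further upstream for Cd3d, 83 for Ly6c1, 95 for Ly6c2 and 487 for Ctla2b, so that the first 3 of these stretches lie partly and that of Ctla2b wholly inside the gene model. Capitals mark the letters TTCNNNGAA, the form of an interferon-gamma activated site, a DNA element of genes that interferon-gamma induces. Ctla2a lies at chr13:60936626-60936875 (minus strand), Ctla2b at chr13:60897448-60897697 (minus), Ly6c1 at chr15:75048838-75049087 (minus), Ly6c2 at chr15:75111972-75112221 (minus) and Cd3d at chr9:44981536-44981785 (plus).
Ctla2a: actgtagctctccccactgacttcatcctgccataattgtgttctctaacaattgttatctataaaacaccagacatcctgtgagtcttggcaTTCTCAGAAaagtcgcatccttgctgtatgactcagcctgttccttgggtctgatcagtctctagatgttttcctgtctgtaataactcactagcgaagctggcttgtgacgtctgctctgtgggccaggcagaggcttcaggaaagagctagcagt
Ctla2b: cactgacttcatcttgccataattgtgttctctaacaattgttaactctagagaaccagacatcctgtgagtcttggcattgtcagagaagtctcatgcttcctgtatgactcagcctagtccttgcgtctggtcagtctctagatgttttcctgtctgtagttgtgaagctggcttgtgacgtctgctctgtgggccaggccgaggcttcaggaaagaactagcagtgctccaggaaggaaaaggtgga
Ly6c1: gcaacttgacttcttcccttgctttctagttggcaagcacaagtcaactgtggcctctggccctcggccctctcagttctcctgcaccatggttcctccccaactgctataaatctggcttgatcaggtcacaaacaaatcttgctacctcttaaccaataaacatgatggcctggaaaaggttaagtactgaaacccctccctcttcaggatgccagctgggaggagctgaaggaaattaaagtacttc
Ly6c2: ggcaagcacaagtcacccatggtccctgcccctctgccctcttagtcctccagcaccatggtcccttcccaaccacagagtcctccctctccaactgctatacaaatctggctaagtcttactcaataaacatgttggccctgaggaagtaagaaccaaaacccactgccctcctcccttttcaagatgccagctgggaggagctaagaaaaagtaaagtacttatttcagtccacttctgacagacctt
Cd3d: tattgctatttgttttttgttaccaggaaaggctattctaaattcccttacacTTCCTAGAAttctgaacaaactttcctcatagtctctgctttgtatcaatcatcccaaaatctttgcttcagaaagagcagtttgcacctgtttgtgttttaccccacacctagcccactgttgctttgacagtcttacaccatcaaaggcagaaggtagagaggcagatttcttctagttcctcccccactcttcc

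Over 228 aligned bases the sequences of Ctla2a and Ctla2b were identical at 91.2%, and over 216 aligned bases those of Ly6c1 and Ly6c2 at 75.9%. The motif TTCNNNGAA, which reads the same on both strands, was present for Ctla2a, starting at position -157 from the listed start, and for Cd3d, starting at position -197 from its listed start, and was not found in the stretches of Ctla2b, Ly6c1 or Ly6c2. Of the 9 members 7 had an entry, Il2rb and Klrd1 being the others, and 4 of the 7 held the motif, Cd3d, Il7r, Ctla2a and Ifng, against 7.14% of all 27025 promoters of the table. Ctla2a alone of these 4 passed in acute versus control, and Ly6c1, which also rose, held no match. The motif was chosen after the values were seen, so this count tests nothing. On either strand TGTGGT, a RUNX core, was held by 1 of the 7 (Klrk1; 14.2% of all), AGGAAG, an ETS core, by 3 (29.2%) and CANCTG, an E-box form, by 6 (44.5%). In Cd3d the ETS core overlaps the TTCNNNGAA match. A match of letters is a description, no binding was measured, and whether interferon-gamma induced any member was not tested.

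The profiles of Il2rb, Ctla2a and Ly6c1 resembled each other. The gene nearest to Il2rb among 184 candidates of comparable spread was Ctla2a (root mean square difference 0.335), followed by Ly6c1 (0.499) and Cyp2f2 (0.537), a cytochrome of airway club cells. Ctla2a had the same 3 neighbours, with Il2rb in place of itself, and Ly6c1 had Ctla2a (0.451), Calhm6 (0.465) and Gbp2 (0.489). Il2rb, Ctla2a and Ly6c1 were the 3 members called higher in acute on these same arrays, so their resemblance is no separate result. On resolution and control arrays Il2rb and Ly6c1 were below background.

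**Figure D5:**
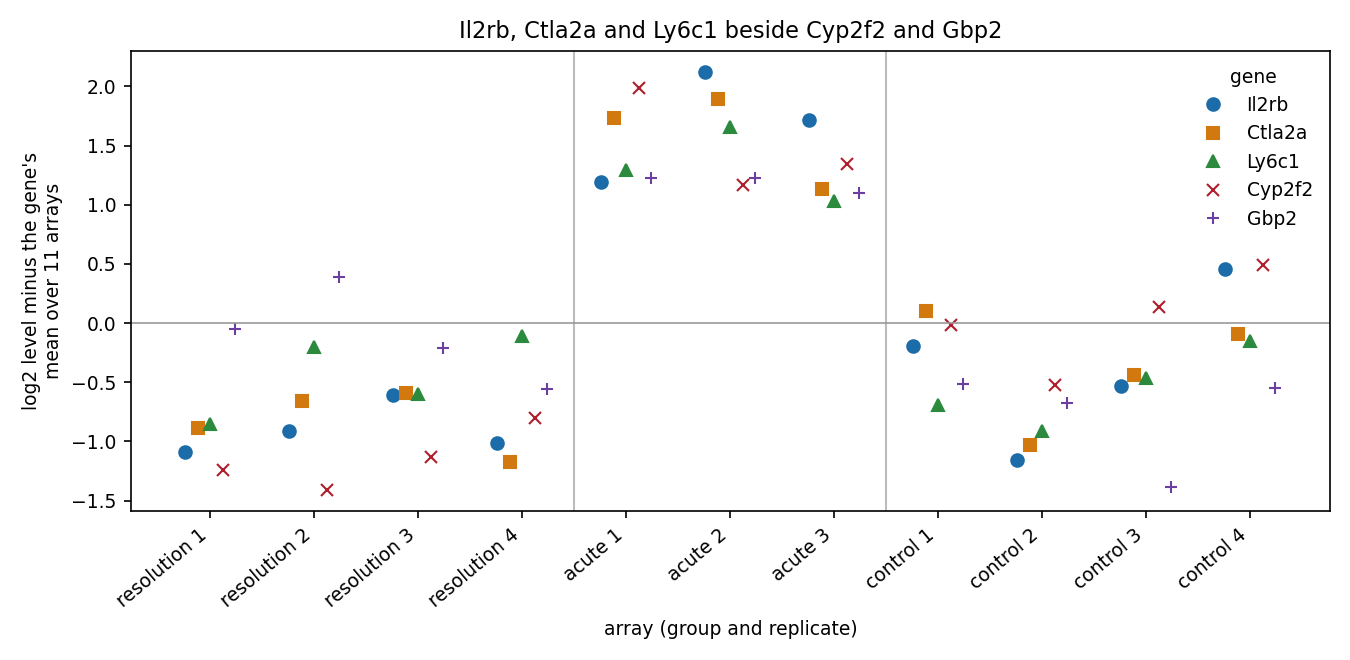
Levels of Il2rb, Ctla2a, Ly6c1, Cyp2f2 and Gbp2 on each of the 11 arrays after subtraction of each gene's mean over the arrays, on the log2 scale, with 1 symbol for each gene and vertical lines between resolution, acute and control arrays. All 5 genes are above 0 in the 3 acute arrays, and Cyp2f2 lies lower in resolution than in control arrays. Il2rb and Ly6c1 are below background on all resolution and control arrays.

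Markers of other cells were compared in the same arrays. Of 8 tested lung epithelium markers 4 rose and 0 fell in acute versus control, and 0 rose and 4 fell in resolution versus control. In resolution versus acute, where 7 members fell, 0 rose and 6 of the 8 fell, with a median difference of -3.16, and Bpifa1, a secreted airway protein, fell by 4.39 ± 0.42 (SE), 21.0-fold. Their mean level over 9 genes was 7.13 to 7.67 in resolution, 9.45 to 10.20 in acute and 8.07 to 8.61 in control arrays. Cyp2f2 had a log2 difference of 1.48 ± 0.25 (SE) in acute versus control and of -1.17 ± 0.23 (SE) in resolution versus control, where Il2rb had -0.55, Ctla2a -0.46 and Ly6c1 0.11. Il2rb and Ly6c1 were below background on all resolution and control arrays, so a fall of theirs could not be measured there. The resolution arrays of Ctla2a lay only 0.0072 to 0.62 above background. The 8 monocyte markers averaged 6.10 to 6.25 in resolution, 6.46 to 6.99 in acute and 6.10 to 6.65 in control arrays, with 0 of 5 tested past the threshold in acute versus control and 1 at an unadjusted p under 0.05. Of 8 endothelial markers 6 were below background on every array, among them Pecam1 and Cldn5, and their mean level was 4.76 to 4.90 in resolution, 4.83 to 4.91 in acute and 4.77 to 5.37 in control arrays. The 7 B cell markers averaged 4.95 to 5.02, 5.06 to 5.11 and 5.02 to 5.56 in resolution, acute and control arrays. Among 5 tested neutrophil, 5 dendritic cell and 3 innate lymphoid cell markers 0 passed in acute versus control, with 1, 1 and 0 at an unadjusted p under 0.05. In resolution versus acute 1 of the 5 monocyte markers fell, the lipopolysaccharide co-receptor Cd14 by 1.46 ± 0.18 (SE, adjusted p = 0.000208), and 0 rose. Of the neutrophil markers 1 rose and 1 fell, Ltf, the gene of lactoferrin, which fell by 2.29 ± 0.28 (SE, adjusted p = 0.000218), and of the dendritic cell markers 1 rose and 2 fell. The part of other cells in the differences of the 9 members was not tested.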

How the data were processed

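Total RNA of 11 samples was labelled with a 3' IVT Pico kit and measured on 1 Affymetrix array each, per the labels' protocols. The deposited values are intensity on a linear scale, made with Affymetrix Expression Console per the submitters' processing notes. Not given in the sources used here were its version, its summary method and the annotation build. Values were used as log2(value + 1) without further scaling. Of 28846 clusters 31 are Affymetrix controls, 19572 have 1 gene symbol, 0 several and 9243 none, named by GEO's platform table, and gene identifiers of all 19572 were found in RefSeq. For 55 symbols with several clusters the one with the highest mean was kept. Genes were tested where at least 3 of 11 arrays exceeded the array's 40th percentile. Group means were fitted with limma 3.58.1 (R 4.3.3), two-sided, to the 11 arrays together with no block, leaving 8 residual and 4.48 prior degrees of freedom, and p-values were adjusted by Benjamini-Hochberg. The procedure was run on simulated data with independent normal noise for each gene and no background floor. It therefore did not test behaviour near background. Alternatives changed the pseudocount, filter, scaling, block, spread, cluster rule and single arrays.

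Replicates are biological per the titles. No 2 arrays of a group held identical values, and the number of arrays limits the precision. The members and gene lists were chosen with earlier results of these data known. Named were all 9 members, 2 paralogs, the 3 genes with the most similar profile for members (among genes with at least 0.75 of the member's SD), and from each list up to 4 genes past the threshold or else the one with the smallest p. Genes named outside this rule were chosen after their values were seen, as were the 4 motifs and the background percentile. Such genes include those below background, Il2ra, Il15ra, Tyrobp, Xcl1, Runx3, Cd247, Cd4, Gzmm, Ctsw and the interferon-gamma receptor chains.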

Additional observations from a re-analysis of the deposited data

How the results depend on the processing

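Of 552 values of single members under the alternatives, 525 kept direction and side of the threshold, 21 lost the call, 3 gained it and 3 changed sign, all 3 from differences that had not passed. With 1 array left out, Ly6c1 in resolution versus control ran from -0.0064 (without control replicate 2) to 0.25, Klrk1 in that comparison from -0.249 to 0.054 (without control replicate 3) and Ifng in resolution versus acute from -0.510 to 0.021 (without acute replicate 1). With the filter at the 60th percentile 4 of the 9 members remained testable, because fewer genes are kept, and the calls were 1 in acute versus control, 0 in resolution versus control and 3 in resolution versus acute. With only the compared groups in the fit, acute versus control gave 1 member (Ly6c1) and 16 genes in all instead of 3 and 29, where fewer arrays estimate the spread. Array weights gave 54 genes there and an intensity trend 51. The cause was not tested. Leaving out 1 array gave 1 to 3 members and 6 to 29 genes in acute versus control, 1 to 3 members and 1829 to 2242 genes in resolution versus control (2259 in the full set), and 5 to 7 members and 1069 to 1837 genes in resolution versus acute (1755). Without acute replicate 2 acute versus control kept Ly6c1 alone. Without control replicate 2, Il7r (adjusted p = 0.0284) and Ctla2a (0.0490) also passed as lower in resolution versus control, and without control replicate 1 Lat did (0.0493).

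Scaling to a common median and quantile normalization kept the sign of all 9 members in each comparison. Calls over all genes in acute versus control were 23 higher and 6 lower as deposited, 25 and 3 after scaling and 29 and 3 after quantile normalization. In resolution versus acute they were 943 higher and 812 lower, 673 and 989, and 685 and 1151. No pairing of the arrays by replicate number was seen in deviations from the group means over all tested genes. Of 10 same-numbered pairs 0 correlated above 0.1 (-0.12 to 0.09), and 1 of 11 arrays correlated best with its own number. A pairing that acts on a small part of the genes could escape this measure. The replicate block gave 3, 1 and 5 members and 25, 2120 and 1455 genes, in the order acute against control, resolution against control and resolution against acute, and the last of these lost Klrk1 (adjusted p = 0.0844) and Lat (0.0906). Signal near background limits Il2rb, Klrd1, Klrk1, Cd3d, Ly6c1 and Ifng. In resolution arrays it also limits Ctla2a, and Il7r on resolution replicates 1, 2 and 4 (0.34, 0.092 and 0.21 above background).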

Other observations

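Cytokines that act on lymphocytes included genes that were higher at day 30. Of 4 tested, 2 rose and 0 fell in resolution versus control and 0 rose and 0 fell in acute versus control (also 0 at an unadjusted p under 0.05), where the difference between the comparisons was not tested by an interaction. Il15, which sustains NK cells and memory T cells, rose by 0.95 ± 0.19 (SE, limma adjusted p = 0.00455), 1.93-fold, in resolution versus control and by 0.89 ± 0.21 (SE, adjusted p = 0.0130) in resolution versus acute. Il7, the ligand of the Il7r chain, rose by 0.93 ± 0.22 (SE, adjusted p = 0.00932) in resolution versus control while staying below background on all arrays.

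Among 6 tested genes of lymphocyte trafficking, Cd69, an early activation and retention marker also found on myeloid cells, was the 1 that rose in resolution versus control, by 0.99 ± 0.24 (SE, adjusted p = 0.0113). In resolution versus acute 2 fell, the chemokine receptor Cxcr6 by 0.70 ± 0.19 (SE) and the integrin Itgae by 0.42 ± 0.10 (SE), both below background on every array. H2-T23, which encodes the Qa-1 ligand of CD94 receptors, was the 1 of 4 tested adaptor and ligand genes that fell, by 0.45 ± 0.12 (SE, adjusted p = 0.0204) in resolution versus control and by 0.89 ± 0.13 (SE, adjusted p = 0.000742) in resolution versus acute.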
